A study of Homo sapiens with 12 samples.

Results

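The immediate early serum response genes are a list of 42 human genes that growth factors, serum or stress switch on quickly. They were found among the 22011 rows of an array data set as rows annotated to a single member's symbol, with the brightest row taken per gene, which gave 36 measured genes, each with 1 row. EGR2, NR4A3, BTG2 and ARC had no row of 1 symbol, and NR4A2 and MCL1 shared theirs with other genes, so these 6 were not analysed here. The cells were HEK293, a widely used line of human embryonic kidney origin, and the 12 1-colour arrays fall into 4 groups of 3 replicates. MED12 is the subunit of the Mediator kinase module that activates the kinase CDK8, and the comparisons ask how transcripts differ when MED12 is overexpressed, overexpressed in a shortened form, or targeted by RNA interference. The transfected plasmid encoded full-length MED12, a MED12 lacking the PQL and Opa domains near its C-terminus (called PQL/Opa-deleted below), or, from an H1 promoter, a hairpin RNA (shRNA) against endogenous MED12. Control cells received nuclear GFP alone in pcDNA5/TO. Both MED12 constructs carried nuclear GFP at the N-terminus and an engineered Kozak sequence in that same vector, whereas the hairpin was in peGFP-C1 and the labels list no control hairpin. All cells were lipofected 24 hours after plating and harvested 48 hours later by trypsin, and living GFP-positive cells were sorted for 20 minutes, frozen in liquid nitrogen and thawed before RNA was purified. All groups are therefore transient transfections of 1 line that keeps its own MED12 gene, and the labels do not say whether the replicates came from separate days.

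Immediate early genes are transcribed within minutes of a stimulus without new protein synthesis. Receptor signalling through RAS and the kinase ERK phosphorylates ternary complex factors such as ELK1, which sit beside serum response factor (SRF) on CArG boxes in the promoters of genes such as EGR1 and FOS. Many of the products are transcription factors that start the later response, and others are phosphatases and RNA-binding proteins that shut the signal off. Mediator takes part in this response: the subunit MED23 binds ELK1, and in human colon cancer cells CDK8 is known as a positive regulator of serum response genes.

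The log2 values of MED12 were 10.63, 10.66 and 10.75 with full-length MED12, 8.62, 8.90 and 9.25 with the PQL/Opa-deleted construct, 3.63, 3.63 and 3.74 with the shRNA and 4.03, 4.56 and 4.66 with GFP. Both constructs passed against GFP (limma, adjusted p = 3.67e-08 and 1.54e-06), and the shRNA difference of -0.75 did not (limma, adjusted p = 0.730), although no shRNA array reached the lowest GFP array. Among 10 markers listed for HEK293 cells, KRT8 averaged 7.25 ± 0.10 and VIM 5.96 ± 0.50 with GFP (SD, n = 3), while the blood markers lay between 1.29 and 3.18 over all arrays, and 0 of the 23 measured genes of 4 marker lists passed in any comparison (limma). Levels of the other listed HEK293 markers are not given here, so these values do not establish the cell type. The standard deviation of all values on an array was lowest in shRNA replicate 1, GFP replicate 1 and PQL/Opa-deleted replicate 1 (1.34, 1.40 and 1.45) and reached 1.60 elsewhere. Of the 36 members, 25 had a mean at or above the median row mean of 3.43 and 11 lay below it. The file gives no detection calls, so no member is shown to be above background, and the fold changes of dim members are uncertain. With so few arrays per group the precision is limited, and the standard error of a member's log2 difference ran from 0.14 to 0.27.

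RefSeq promoters (GRCh38.p14, 250 bases before and 50 after the annotated start) were found for 27 of the 36 measured genes. Where a gene had more than 1 entry, the one with the lowest coordinate was used, which need not be its main promoter. Those of EGR1, DUSP1 and SGK1 are shown because these genes had the smallest p-values with full-length MED12, and that of SRF because its product reads the CArG box. In each sequence, written 5′ to 3′ on the gene's strand, capitals mark every match on either strand to a CArG box, to the cyclic AMP response element TGACGTCA, to the AP-1 site TGACTCA or to the EGR site GCGGGGGCG.
EGR1: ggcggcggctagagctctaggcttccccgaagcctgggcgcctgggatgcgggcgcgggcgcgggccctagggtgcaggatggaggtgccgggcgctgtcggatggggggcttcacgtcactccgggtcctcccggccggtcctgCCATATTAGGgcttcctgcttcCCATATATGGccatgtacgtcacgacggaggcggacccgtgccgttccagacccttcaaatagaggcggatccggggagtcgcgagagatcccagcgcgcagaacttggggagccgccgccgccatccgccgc
DUSP1: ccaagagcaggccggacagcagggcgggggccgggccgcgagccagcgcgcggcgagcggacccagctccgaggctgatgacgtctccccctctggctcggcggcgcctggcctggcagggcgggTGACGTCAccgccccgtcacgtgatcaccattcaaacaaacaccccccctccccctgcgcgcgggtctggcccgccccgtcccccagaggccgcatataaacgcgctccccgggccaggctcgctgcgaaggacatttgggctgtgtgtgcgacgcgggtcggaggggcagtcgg
SGK1: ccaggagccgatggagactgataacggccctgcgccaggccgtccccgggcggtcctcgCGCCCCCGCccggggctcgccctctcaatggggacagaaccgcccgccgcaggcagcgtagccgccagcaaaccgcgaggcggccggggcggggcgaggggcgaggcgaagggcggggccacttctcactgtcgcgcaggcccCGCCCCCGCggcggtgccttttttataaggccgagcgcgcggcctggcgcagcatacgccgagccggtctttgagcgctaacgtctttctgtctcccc
SRF: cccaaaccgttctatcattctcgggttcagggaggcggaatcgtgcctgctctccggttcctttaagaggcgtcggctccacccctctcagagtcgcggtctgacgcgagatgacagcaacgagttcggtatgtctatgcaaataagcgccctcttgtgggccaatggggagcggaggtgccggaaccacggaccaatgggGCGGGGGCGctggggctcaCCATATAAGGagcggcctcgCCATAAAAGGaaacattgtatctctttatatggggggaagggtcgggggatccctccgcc
The EGR1 window (chr5:138465229-138465528, plus strand) holds a pair of CArG boxes that begin 105 and 83 bases upstream of the start. The SRF window (chr6:43171019-43171318, plus strand) also holds a pair, 30 and 10 bases upstream, and an EGR site 49 bases upstream. DUSP1 (chr5:172771146-172771445, minus strand) has a cyclic AMP response element 125 bases upstream. SGK1 (chr6:134174817-134175116, minus strand) has EGR sites that begin 191 and 48 bases upstream, both on the other strand. CArG boxes, read strictly as CC, 6 bases of A or T and GG, were found in 2 of the 27 member promoters (7.41%), EGR1 and SRF, and in 1.31% of 27305 promoters of the same length. The FOS window held no match. Looser matches, and sites outside the windows, were not sought, so a window without a match does not show that a gene lacks such boxes. The cyclic AMP response element was in 3 (DUSP1, JUND and MAFF) against 1.94% of all promoters, the EGR site in 6 (DUSP2, GADD45B, KLF2, KLF6, SGK1 and SRF) against 4.9%, and the AP-1 site in FOSL2 alone against 5.04%. These matches describe the letters in a short window and are not shown to be bound sites.

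With full-length MED12, the members with the smallest p-values were EGR1, DUSP1, SGK1 and ZFP36, which lay 1.59-, 1.52-, 1.30- and 1.38-fold above GFP. In each of these 4 genes all 3 full-length arrays lay above all 3 GFP arrays, as they also did for FOS and IER5. None of the 36 members passed limma's test after Benjamini-Hochberg adjustment over all rows (0 of 36), where 0.0136% of rows passed. At an unadjusted p under 0.05 there were 4 members on the positive side (1.44% of rows) and 0 on the negative side (1.36% of rows), together 2.8% of rows. Groups did not overlap in 6 members, all higher, beside 4.03% of rows that were higher and 3.7% that were lower. In bulk RNA, a difference in every cell and a difference in a share of the cells cannot be told apart. The count of 4 was 2 without full-length replicate 2 or 3, PQL/Opa-deleted replicate 3 or shRNA replicate 2. In those settings between 2.32% and 3.05% of rows had an unadjusted p under 0.05 in either direction. With the replicate number as a block the count was 5, beside 5.28% of rows in either direction.

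With the PQL/Opa-deleted construct, few members stood apart from GFP. SGK1 lay 1.35-fold above GFP and JUNB had a log2 difference of -0.42, and these were the members at an unadjusted p under 0.05, with 1 on the positive side (1.75% of rows) and 1 on the negative side (1.7% of rows), together 3.46% of rows. No member passed after adjustment over all rows (limma, 0 of 36; 0.00454% of rows passed). SRF and PLK2 were the members in which every array lay above every GFP array (4.13% of rows), and CCN2 the one in which every array lay below (3.79% of rows). The positive count was 0 without GFP replicate 1 or PQL/Opa-deleted replicate 3 (2.8% and 3.37% of rows in either direction). It was 2 without PQL/Opa-deleted replicate 1 (4.47% of rows). The negative count was 0 when any array other than full-length replicate 1, PQL/Opa-deleted replicate 1 or GFP replicate 3 was left out. In those settings between 2.48% and 4.28% of rows had an unadjusted p under 0.05 in either direction. With the replicate number as a block 3 members had an unadjusted p under 0.05, beside 6.35% of rows.

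With the shRNA, JUN, CCN2 and PLK2 lay at 0.73, 0.76 and 0.75 of their GFP levels, and in each the highest shRNA array was below the lowest GFP array. IER3 was the fourth member whose groups did not overlap, also lower, beside 3.85% of rows that were lower and 4.71% that were higher. No member passed after adjustment over all rows (limma, 0 of 36; 0.0681% of rows passed), and the smallest adjusted p was 0.857, that of JUN. At an unadjusted p under 0.05 there were 3 members on the negative side (2.58% of rows) and 0 on the positive side (2.47% of rows), together 5.04% of rows. All 3 were among the 25 brighter members, where 4% of rows were lower at that p. In this comparison the HEK293 markers had a median of -0.20 (3 of 10 above 0, with NEFM lower at an unadjusted p under 0.05), the fibroblast markers 0.16 (6 of 6 above 0), the hepatocyte markers 0.21 (3 of 3) and the blood markers 0.11 (3 of 4), and their part in the members' values was not tested. Rows below the median row mean, whatever their gene, had a median of 0.07 (7050 of 11005 above 0), and those at or above it -0.03 (4922 of 11006). The negative count was 1 without shRNA replicate 1 (3.73% of rows in either direction), and also without the 3 arrays of narrow spread together (6.19%). The positive count was 1 without those 3 arrays, shRNA replicate 3 (4.13%), GFP replicate 1 (6.96%) or GFP replicate 3 (4.84%).

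The 3 comparisons above share their GFP arrays. A pair of direct comparisons without GFP was therefore made as well. Both use the same 3 full-length arrays, which also serve in the comparison with GFP, so they are not independent of it or of each other. Full-length MED12 against the PQL/Opa-deleted construct gave 1 member at an unadjusted p under 0.05 on the positive side (1.11% of rows), EGR1, at 1.45-fold, and 0 on the negative side (0.795% of rows), together 1.9% of rows. EGR1, NR4A1, KLF6 and IER5 were higher with full-length MED12 in every array (3.81% of rows), and 0 members were lower in every array (3.09% of rows). No member passed after adjustment (limma, 0 of 36; 0.00454% of rows passed). The row that passed was MED12 itself, with a log2 difference of 1.76 (limma, adjusted p = 0.0421). The constructs thus differed in measured MED12 level as well as in the deleted domains, and the part of either in the members' differences was not tested. Without PQL/Opa-deleted replicate 1, the count on the positive side was 3, beside 1.93% of rows in either direction. Without the 3 narrow arrays it was 4, beside 4.32% of rows. Without full-length replicate 3 there was 1 member on the negative side, beside 1.84% of rows in either direction.

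The shRNA against full-length MED12 was the comparison with the most members on one side. EGR1, JUN, PLK2, SGK1, ZFP36, ATF3 and IER5 lay lower with the shRNA at an unadjusted p under 0.05, 7 of 36 members beside 4.22% of rows, and 0 lay higher, beside 2.95% of rows (7.17% in either direction). Their levels with the shRNA were between 0.62 (EGR1) and 0.78 (IER5) of those with full-length MED12. Every shRNA array lay below every full-length array in 9 members, those 7 with KLF10 and IER3, beside 5.98% of rows, and 0 lay above, beside 6.16% of rows. After adjustment over all rows 0 of the 36 members passed (limma; 0.104% of rows passed), the smallest adjusted p being 0.238 for EGR1. Rows at or above the median row mean had a median of -0.06 in this comparison, with 7.17% of them lower at an unadjusted p under 0.05. The members among them numbered 25, with a median of -0.21, of which 6 were lower at that p. Leaving out single arrays gave between 5 and 8 lower members. The count was 5 without full-length replicate 2 or shRNA replicate 3, beside 4.24% and 5.09% of rows in either direction. It was 8 without GFP replicate 1 (8.31% of rows) and without the 3 narrow arrays (8.37% of rows). Without shRNA replicate 2 it was 7, beside 14.5% of rows in either direction. In the same comparison the HEK293 markers had a median of -0.18 (4 of 10 above 0), while the fibroblast markers had 0.22 (6 of 6 above 0), the hepatocyte markers 0.26 (3 of 3) and the blood markers 0.28 (3 of 4). Rows below the median row mean, whatever their gene, had a median of 0.12 there, with 7772 of 11005 above 0. At an unadjusted p under 0.05, 3 of the 10 HEK293 markers were lower (NEFM, INA and GATA3) and 1 of the 3 hepatocyte markers was higher (APOA1), genes named here after their values were seen. None of the 23 markers passed after adjustment (limma), the smallest adjusted p being 0.166 for NEFM, a neurofilament gene, at -0.82, which is below that of EGR1. The part of these markers in the members' values was not tested. In the F test for any difference among the 4 groups, 0 of 36 members passed after adjustment (limma; 0.0863% of rows passed), and 5 had an unadjusted p under 0.05 (4.62% of rows): EGR1, JUN, SGK1, PLK2 and ZFP36.

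**Figure D1:**
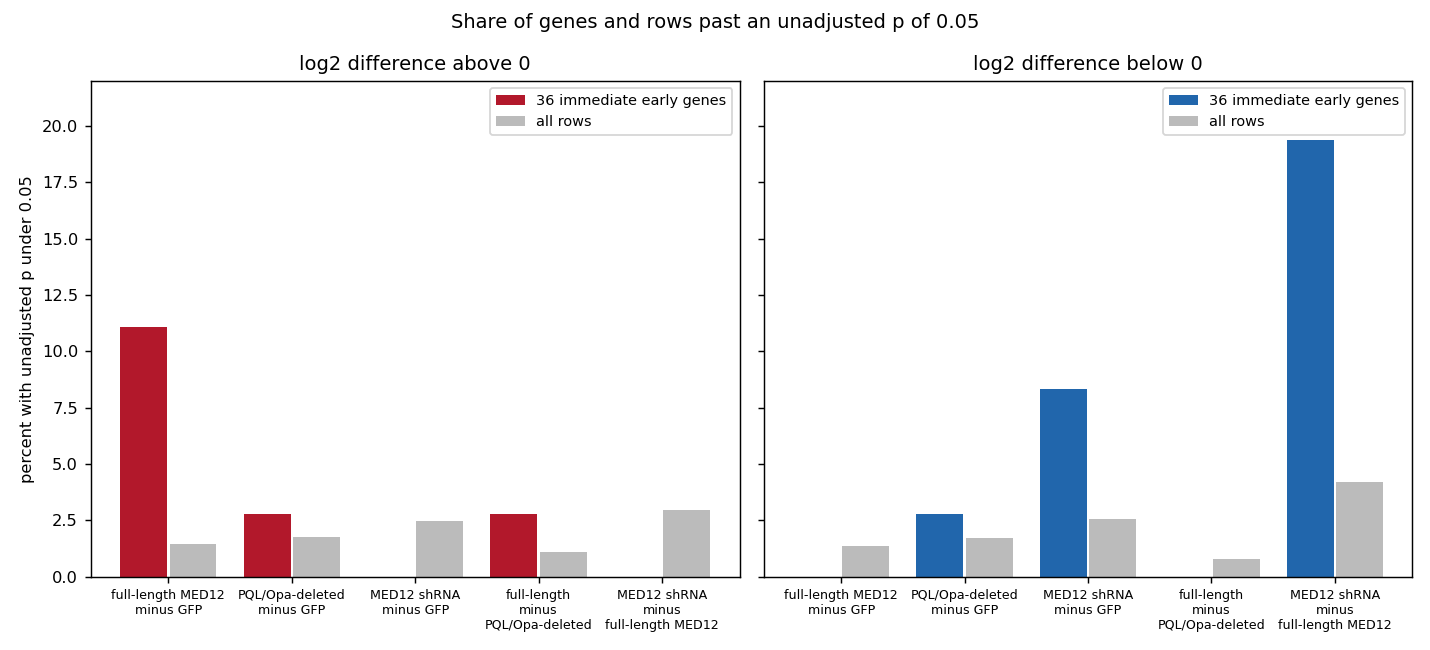
Percent of the 36 immediate early genes (coloured bars) and of all 22011 rows (grey bars) with an unadjusted limma p under 0.05 in each comparison, with differences above 0 on the left and below 0 on the right. The tallest bar is the 19.4% of members lower with the shRNA than with full-length MED12, next to 4.22% of rows, and none of these members passed after adjustment over all rows.

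Over the whole list, the mean log2 difference was 0.10 with full-length MED12 against GFP (median 0.09, 22 of 36 above 0 beside 48.6% of rows), where all rows had a median of -0.01. It was 0.05 with the PQL/Opa-deleted construct (median 0.05, 20 of 36 above 0 beside 48.4% of rows, all rows -0.01) and -0.05 with the shRNA (median -0.05, 15 of 36 above 0 beside 54.4% of rows, all rows 0.02). The shRNA against full-length MED12 had a mean of -0.15 and a median of -0.05, with 10 of 36 above 0 beside 56.1% of rows and a median of 0.04 over all rows. Full-length MED12 against the PQL/Opa-deleted construct had a mean of 0.05 and a median of 0.04, with 21 of 36 above 0 beside 49.7% of rows. The average over the members per array, set against the GFP mean, was 0.10, 0.09 and 0.11 with full-length MED12, 0.17, -0.02 and 0.01 with the PQL/Opa-deleted construct, 0.02, -0.11 and -0.06 with the shRNA and 0.12, -0.09 and -0.03 with GFP. Full-length MED12 had the tightest replicates, and its arrays lay inside the range of the GFP arrays, in which replicate 1 was the highest. Replicate 1, an array of narrow spread, was also the highest with the PQL/Opa-deleted construct and with the shRNA, and the part of that spread in these averages was not tested. Without GFP replicate 1 the mean with full-length MED12 was 0.16 and without GFP replicate 2 it was 0.06. The mean with the PQL/Opa-deleted construct was -0.01 without its replicate 1, 0.09 without its replicate 2, 0.11 without GFP replicate 1 and 0.01 without GFP replicate 2. That with the shRNA was 0.01 without GFP replicate 1, -0.09 without GFP replicate 2 or shRNA replicate 1 and -0.02 without shRNA replicate 2, so neither sign held throughout. The mean of full-length MED12 against the PQL/Opa-deleted construct was 0.11, 0.01 and 0.03 without PQL/Opa-deleted replicate 1, 2 and 3 in turn.

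**Figure D2:**
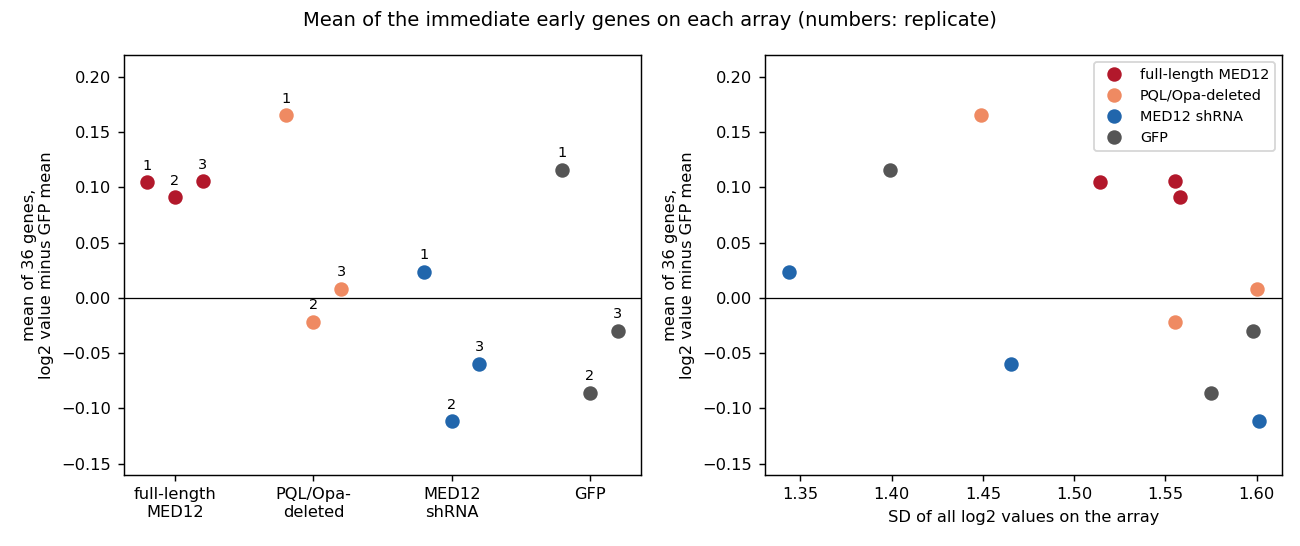
Mean over the 36 immediate early genes of the log2 value minus the GFP mean, 1 point per array, by group on the left (numbers give the replicate) and against the standard deviation of all values on the array on the right. The 3 full-length arrays lie between 0.09 and 0.11, inside the span of the 3 GFP arrays, whose lowest is -0.09 and highest 0.12.

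The EGR genes encode zinc finger transcription factors. EGR1, the best known of them and induced through its CArG boxes, had log2 values of 6.44, 6.46 and 6.47 with full-length MED12, 5.95, 5.79 and 6.03 with the PQL/Opa-deleted construct, 5.54, 5.85 and 5.91 with the shRNA and 5.84, 5.62 and 5.91 with GFP. The full-length arrays lay above every other array, and the other 3 groups overlapped. Its difference from GFP was 0.66 ± 0.15 (SE; 95% interval 0.33 to 1.00; limma, adjusted p = 1.00). Against the PQL/Opa-deleted construct it was 0.53 ± 0.15 (interval 0.20 to 0.87), and the shRNA minus full-length MED12 gave -0.69 ± 0.15 (interval -1.03 to -0.35). All of these differences use the same full-length arrays. Of all members EGR1 had the smallest p in the F test among the 4 groups (limma, adjusted p = 0.630). With the shRNA its difference from GFP was -0.03, within an interval of -0.36 to 0.31. EGR3 and EGR4, which are closely related, had differences from GFP of at most 0.31 in size, and their groups overlapped in every comparison.

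**Figure D3:**
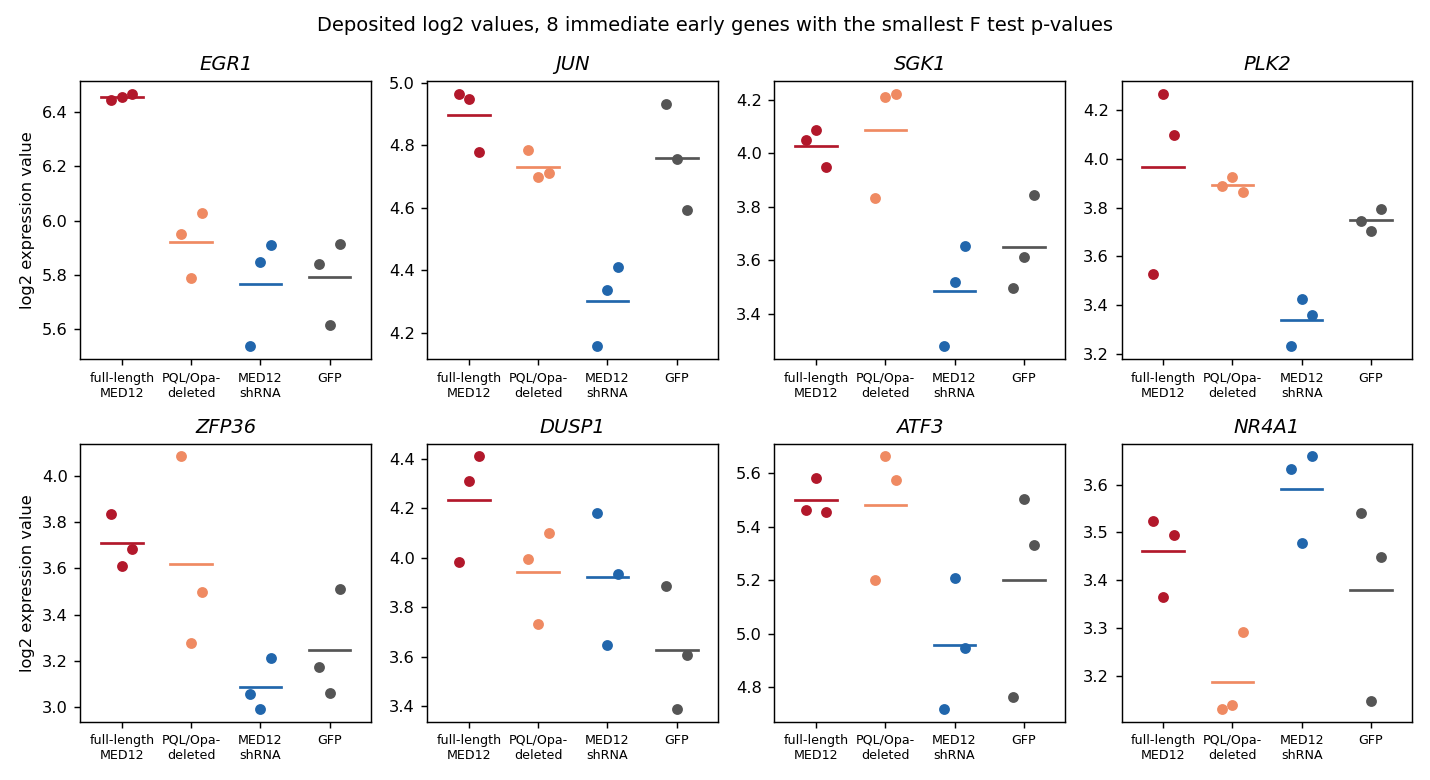
Deposited log2 values of the 8 immediate early genes with the smallest F test p-values, 1 point per array (replicates 1 to 3 from left to right) and a line at each group's mean. For EGR1 the 3 full-length arrays, at 6.44 to 6.47, lie above the other 9 arrays, and for JUN the 3 shRNA arrays, at 4.16 to 4.41, lie below the other 9. Each panel has its own vertical scale, which does not start at 0.

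The AP-1 genes encode subunits and partners of the dimeric transcription factor AP-1. JUN, its founding subunit, had values of 4.96, 4.95 and 4.78 with full-length MED12, 4.78, 4.70 and 4.71 with the PQL/Opa-deleted construct, 4.16, 4.34 and 4.41 with the shRNA and 4.93, 4.75 and 4.59 with GFP. The shRNA arrays were the 3 lowest of the 12. The difference was -0.46 ± 0.15 against GFP (SE; interval -0.78 to -0.14; limma, adjusted p = 0.857) and -0.60 ± 0.15 against full-length MED12 (interval -0.91 to -0.28; limma, adjusted p = 0.309). Without the 3 narrow arrays the comparison with GFP gave -0.30.

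ATF3, a stress-induced member of the same family of leucine zipper factors, had values of 5.46, 5.58 and 5.46 with full-length MED12, 5.20, 5.66 and 5.58 with the PQL/Opa-deleted construct, 4.72, 5.21 and 4.95 with the shRNA and 4.76, 5.50 and 5.33 with GFP. The shRNA arrays lay below the full-length arrays (-0.54 ± 0.22, SE; interval -1.02 to -0.07) and overlapped with GFP, where replicate 1 was low. JUNB, another JUN protein, had 4.42, 4.79 and 4.82 with full-length MED12, 4.66, 4.33 and 4.09 with the PQL/Opa-deleted construct, 4.58, 4.63 and 4.63 with the shRNA and 5.03, 4.74 and 4.59 with GFP. It was lowest on average with the PQL/Opa-deleted construct, at 4.36 ± 0.29 against 4.78 ± 0.22 with GFP (SD, n = 3 each; limma, adjusted p = 1.00), and those groups overlapped.

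FOS, the partner of JUN in the classical AP-1 dimer, had 3.20, 3.47 and 3.11 with full-length MED12, 3.41, 2.76 and 2.72 with the PQL/Opa-deleted construct, 3.06, 3.01 and 3.29 with the shRNA and 2.90, 2.72 and 3.07 with GFP. The full-length arrays lay above the GFP arrays, by 0.36 ± 0.21 on average (SE; interval -0.09 to 0.81), and overlapped with both other groups. FOSB had 3.68, 3.54 and 3.51 with full-length MED12, 3.32, 3.42 and 3.53 with the PQL/Opa-deleted construct, 3.57, 3.53 and 3.59 with the shRNA and 3.91, 3.27 and 3.27 with GFP, and all arrays of the other 3 groups lay inside the GFP range. Among the remaining AP-1 genes (FOSL1, FOSL2, JUND and MAFF) the differences from GFP ran from -0.15 (FOSL2, full-length) to 0.32 (FOSL1, shRNA), and all groups overlapped.

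NR4A1, an orphan nuclear receptor, had 3.52, 3.37 and 3.49 with full-length MED12, 3.13, 3.14 and 3.29 with the PQL/Opa-deleted construct, 3.63, 3.48 and 3.66 with the shRNA and 3.54, 3.15 and 3.45 with GFP. The full-length arrays lay above those of the PQL/Opa-deleted construct (0.27 ± 0.15, SE; interval -0.05 to 0.60) and overlapped with GFP.

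The other transcription regulators had differences from GFP of at most 0.32 in size, that of KLF10 with the shRNA. SRF, which binds the CArG boxes of other members, had 4.92, 5.25 and 5.14 with full-length MED12, 5.28, 5.16 and 5.29 with the PQL/Opa-deleted construct, 5.13, 4.94 and 4.60 with the shRNA and 4.92, 5.11 and 5.00 with GFP. Its arrays with the PQL/Opa-deleted construct were above those with GFP by 0.23 ± 0.17 on average (SE; interval -0.13 to 0.60). MYC, a growth-promoting factor, had 3.02, 2.79 and 2.31 with full-length MED12, 3.18, 2.91 and 2.91 with the PQL/Opa-deleted construct, 3.02, 2.54 and 2.66 with the shRNA and 3.28, 2.87 and 2.74 with GFP, and all its groups overlapped.

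IER5, a regulator that binds phosphatase 2A, had 4.73, 4.82 and 4.79 with full-length MED12, 4.60, 4.61 and 4.41 with the PQL/Opa-deleted construct, 4.58, 4.42 and 4.28 with the shRNA and 4.51, 4.69 and 4.51 with GFP. Full-length arrays were its 3 highest, and the difference of the shRNA from them was -0.36 ± 0.14 (SE; interval -0.67 to -0.05). KLF4, a zinc finger factor used in reprogramming, had 3.67, 3.50 and 4.12 with full-length MED12, 4.16, 4.01 and 3.93 with the PQL/Opa-deleted construct, 3.80, 3.97 and 3.76 with the shRNA and 3.85, 3.60 and 3.95 with GFP, with overlap throughout. KLF10, a TGF-beta-inducible factor, differed by -0.32 with the shRNA against GFP and by -0.42 against full-length MED12, and its arrays did not overlap with the full-length arrays. Across KLF2, KLF6, CSRNP1 and IER2 the differences from GFP ran from -0.26 (KLF2, full-length) to 0.21 (IER2, PQL/Opa-deleted).

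**Figure D4:**
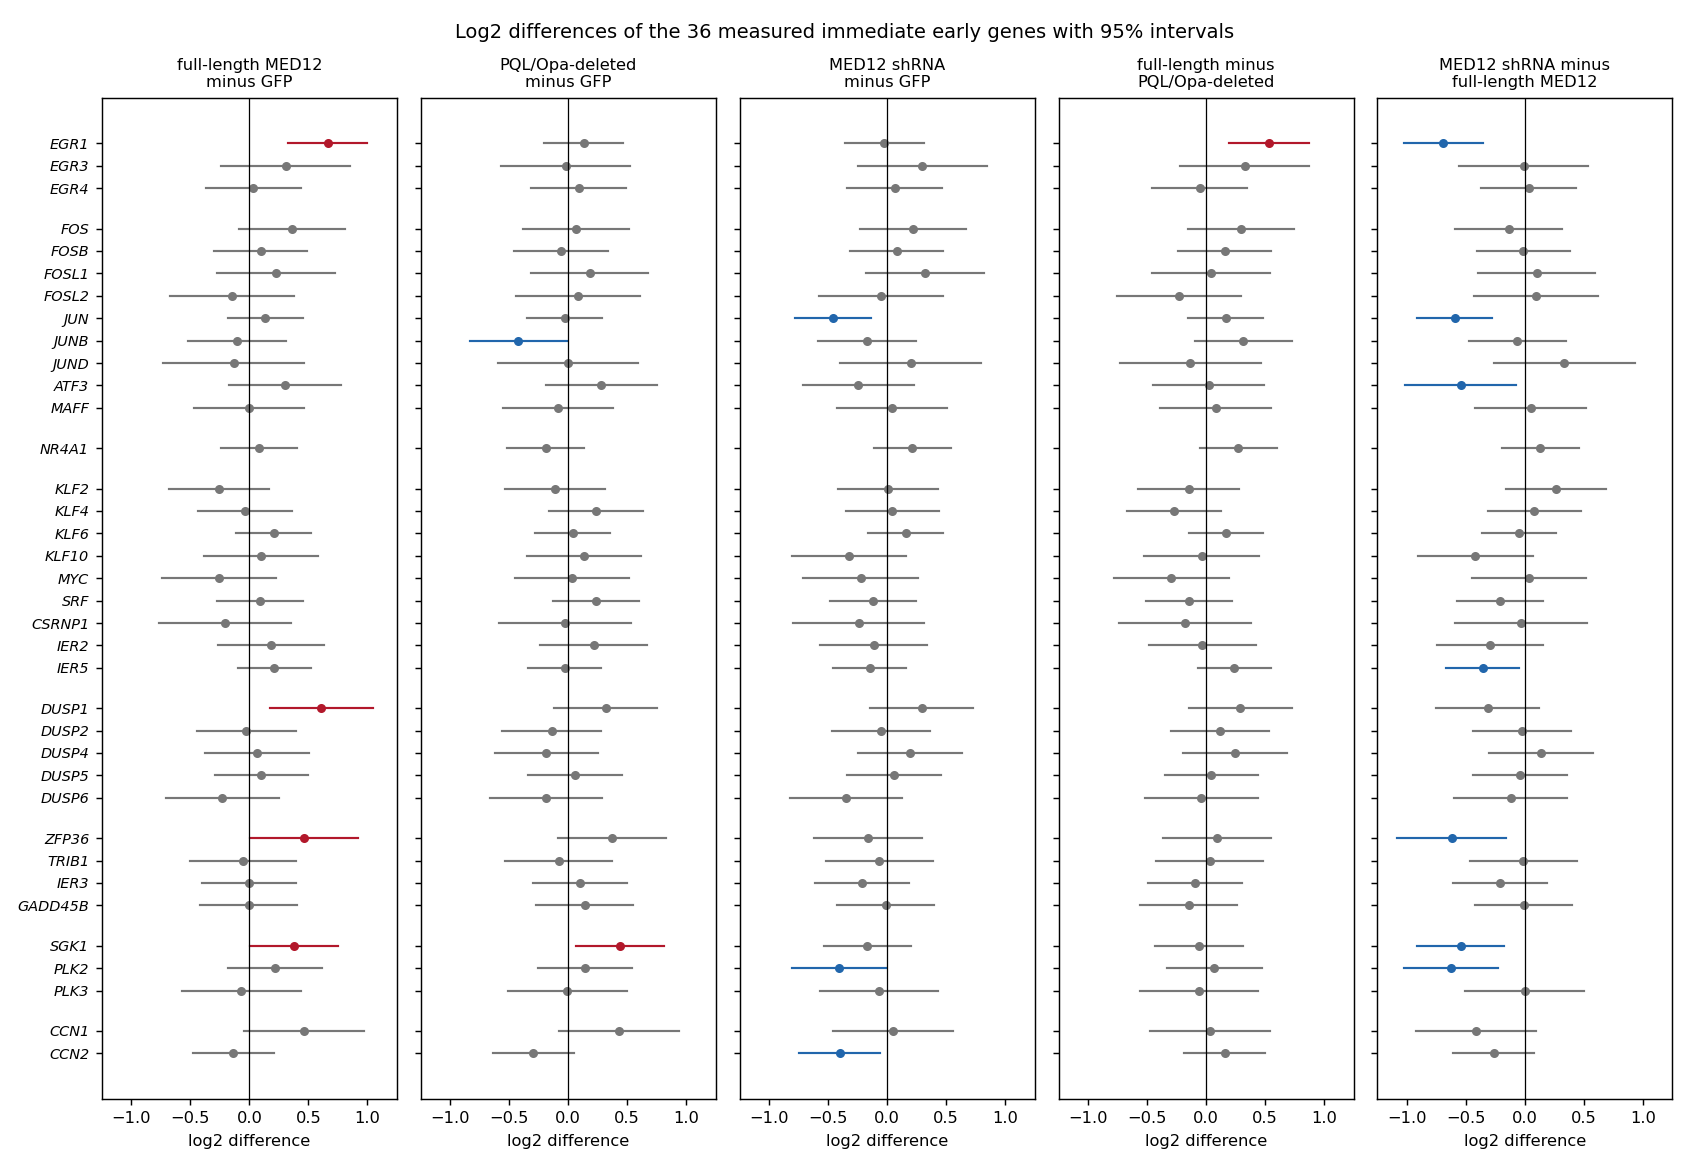
Log2 differences of the 36 measured immediate early genes in the 5 comparisons, with 95% intervals from limma's fit, grouped by role from the EGR family at the top to the matricellular genes at the bottom. Red and blue mark intervals wholly above or below 0 without adjustment for the number of rows. EGR1 is red where full-length MED12 is set against GFP and against the PQL/Opa-deleted construct, and 7 genes are blue in the comparison of the shRNA with full-length MED12.

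The DUSP genes encode phosphatases that switch off MAP kinases. DUSP1, a nuclear phosphatase acting mainly on stress kinases and ERK, had 3.98, 4.31 and 4.41 with full-length MED12, 3.997, 3.73 and 4.10 with the PQL/Opa-deleted construct, 4.18, 3.65 and 3.94 with the shRNA and 3.88, 3.39 and 3.61 with GFP. The full-length arrays lay above the GFP arrays by 0.61 ± 0.20 on average (SE; interval 0.17 to 1.04; limma, adjusted p = 1.00), and overlapped with the others. The PQL/Opa-deleted construct and the shRNA had DUSP1 differences from GFP of 0.32 and 0.29, and the second was 0.16 without shRNA replicate 1 and 0.43 without shRNA replicate 2. DUSP6, the cytoplasmic phosphatase specific for ERK, had 1.97, 2.21 and 2.38 with full-length MED12, 2.02, 2.24 and 2.42 with the PQL/Opa-deleted construct, 2.08, 1.68 and 2.44 with the shRNA and 2.66, 2.17 and 2.42 with GFP. It was among the dim rows, above 12.2% of row means, and its groups overlapped. DUSP2, DUSP4 and DUSP5 had differences from GFP between -0.18 and 0.19.

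Among the 4 other brakes and survival regulators, ZFP36 and IER3 each had groups that did not overlap in 2 comparisons. ZFP36 encodes tristetraprolin, which binds AU-rich messages and speeds their decay. It had 3.84, 3.61 and 3.68 with full-length MED12, 4.08, 3.28 and 3.50 with the PQL/Opa-deleted construct, 3.06, 2.99 and 3.21 with the shRNA and 3.17, 3.06 and 3.51 with GFP. Full-length arrays lay above GFP by 0.46 ± 0.21 (SE; interval 0.00 to 0.92) and the shRNA arrays differed from them by -0.62 ± 0.21 (interval -1.08 to -0.16; limma, adjusted p = 0.585). IER3, a survival factor, lay below GFP in all 3 shRNA arrays, at 4.19 ± 0.07 against 4.40 ± 0.04 (SD, n = 3 each), a difference of -0.21, and it also lay below every full-length array. TRIB1, a pseudokinase, and GADD45B, a stress sensor upstream of p38, had differences from GFP between -0.08 and 0.14.

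Among the kinases, SGK1 and PLK2 had groups that did not overlap in some comparisons and PLK3 in none. SGK1, the serum- and glucocorticoid-induced kinase, had 4.05, 4.09 and 3.95 with full-length MED12, 3.83, 4.21 and 4.22 with the PQL/Opa-deleted construct, 3.28, 3.52 and 3.65 with the shRNA and 3.50, 3.61 and 3.84 with GFP. It was higher than GFP with full-length MED12 by 0.38 ± 0.17 (SE; interval 0.01 to 0.75) and with the PQL/Opa-deleted construct by 0.44 ± 0.17 (interval 0.07 to 0.81), with overlap in the second case. The direct difference between the constructs was -0.06, with an interval of -0.43 to 0.31. PLK2, a polo-like kinase, had 3.53, 4.27 and 4.10 with full-length MED12, 3.89, 3.92 and 3.87 with the PQL/Opa-deleted construct, 3.23, 3.42 and 3.36 with the shRNA and 3.74, 3.70 and 3.80 with GFP. The shRNA arrays were the 3 lowest, with differences of -0.41 ± 0.18 against GFP (SE; interval -0.81 to -0.01) and -0.63 ± 0.18 against full-length MED12 (limma, adjusted p = 0.500). PLK3 had differences from GFP between -0.07 and -0.01.

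CCN1 and CCN2 encode secreted matricellular proteins that bind integrins, and with both constructs their differences from GFP had opposite signs. CCN1 had 5.14, 5.37 and 5.23 with full-length MED12, 4.94, 5.45 and 5.25 with the PQL/Opa-deleted construct, 4.89, 5.15 and 4.46 with the shRNA and 4.40, 5.15 and 4.82 with GFP. Its averages with the constructs were 0.46 and 0.43 above GFP (SE 0.23 each; intervals -0.05 to 0.97 and -0.08 to 0.94), and without GFP replicate 1 these were 0.26 and 0.23. CCN2 had 5.34, 5.11 and 4.95 with full-length MED12, 5.06, 4.95 and 4.91 with the PQL/Opa-deleted construct, 4.74, 4.95 and 4.92 with the shRNA and 5.46, 5.25 and 5.11 with GFP. Every array of the shRNA and of the PQL/Opa-deleted construct lay below every GFP array for CCN2, with differences of -0.40 ± 0.16 (SE; interval -0.75 to -0.06) and -0.30 ± 0.16 (interval -0.64 to 0.05), against the same 3 GFP arrays. Without the 3 narrow arrays the shRNA value was -0.24.

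The genes around the response were read from 6 further lists with 69 genes, of which 51 were measured. In none of the 5 comparisons did a gene of these lists pass after adjustment over all rows (limma, 0 of 51 each). At an unadjusted p under 0.05 there was 1 of 51 with full-length MED12 against GFP, on the positive side (2.8% of rows in either direction), and 0 with the PQL/Opa-deleted construct (3.46% of rows). The shRNA against GFP gave 2, both on the positive side (5.04% of rows). Full-length MED12 against the PQL/Opa-deleted construct gave 0 (1.9% of rows), and the shRNA against full-length MED12 gave 1 on each side (7.17% of rows). CNN2, an actin-binding calponin and the largest difference of these lists on the positive side, lay above GFP by 0.64 with full-length MED12, 0.46 with the PQL/Opa-deleted construct and 0.56 with the shRNA (SE 0.25 each), against the same GFP arrays.

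Of the 15 measured genes from receptors to ERK, GRB2, the adaptor between receptors and SOS, had 0.43 with full-length MED12, and ARAF, a RAF kinase, had 0.32 with the shRNA. The 7 measured ternary complex factors and cofactors had medians of 0.21 with full-length MED12, 0.17 with the PQL/Opa-deleted construct and 0.11 with the shRNA. In that list the coactivator CREBBP had 0.39 and ELK1 0.30 with full-length MED12, and MED23 had 0.01. ELK1 was also the gene of these lists with the smallest p between the constructs, at 0.39 ± 0.19 (SE). The 13 measured genes of ERK feedback and the delayed response had medians of 0.07 with full-length MED12, -0.05 with the PQL/Opa-deleted construct and 0.02 with the shRNA. LIF, a cytokine, had -0.42 with the PQL/Opa-deleted construct against GFP and 0.47 with the shRNA against full-length MED12, where HBEGF, an EGF receptor ligand, had -0.46. FHL2, an SRF cofactor and target, had 0.25 with the PQL/Opa-deleted construct, and MAPK9, a JUN kinase, had -0.43 with the shRNA. Medians of the 8 cytoskeletal SRF targets, 4 YAP targets and 4 stress kinases lay between -0.08 and 0.20 in the comparisons with GFP.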

How the data were processed

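RNA from 12 HEK293 samples was measured on 1-colour arrays. The deposited log2 values hold 1 value per row and array; per the submitters' processing notes the authors used Partek, RMA and hg18, and the version and filters remain not given in the sources used here. The values were used as deposited, with 0 columns left out. Of 22011 rows 14432 have 1 symbol in the annotation table, 2408 several and 5171 none listed; a RefSeq gene entry was found for 14404. limma 3.58.1 (R 4.3.3) fitted 1 mean per group to every row, and eBayes without a trend gave two-sided tests (8 residual and 3.52 prior degrees of freedom) with Benjamini-Hochberg adjustment over all rows at 0.05. Exact permutation of 3 arrays against 3 can give no p under 0.1. The limma p-values weigh differences between group means against the spread of the arrays within groups. The script was tested on simulated data whose changes were larger than any member's difference here, and its recovery of smaller differences was not tested.

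The members, lists and comparisons were chosen with earlier results of these data known. Values per array are given for MED12, the 8 members with the smallest F test p, the 5 with the smallest p in each comparison, and EGR1, FOS, FOSB, JUN, JUNB, MYC and SRF. Of the pathway lists, up to 3 genes with the smallest p per comparison are named; the values of MED23, and of ELK1 with full-length MED12, were added after seeing them. The labels call the arrays of each group biological replicates 1 to 3 but do not say what arrays of the same number share. Deviations from the group means over all rows correlated by over 0.1 between same-numbered arrays in every pair for both constructs against GFP (lowest 0.10, highest 0.47). Counts from a fit with the replicate number as a block are therefore given as an alternative. The main fit has no such term, so standard errors, intervals and p-values ignore any pairing unless the block is named. In the other 3 comparisons at least 1 pair lay lower (lowest 0.02).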

Additional observations from a re-analysis of the deposited data

How the results depend on the processing

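The alternatives were a replicate block, an intensity trend, array weights, quantile normalization, equal array spread, median centring, leaving out dim rows, fits of 2 arms, leaving out each of the 12 arrays and leaving out the 3 narrow arrays. With 0 members having more than 1 row, averaging rows gave the same values, and the F test has no fit of 2 arms. Under every alternative except array weights, 0 members passed over all rows in each of the 5 comparisons and in the F test (limma); with the replicate block the smallest adjusted p among members was 0.110, for the shRNA against full-length MED12. Array weights gave shRNA replicate 3 a weight of 8.77 and called 14 of 36 members with the shRNA against GFP (5702 of 22011 rows), 11 against full-length MED12 (3383 rows) and 16 in the F test (6360 rows). With these weights MED12 passed with the shRNA at -0.81 (limma, adjusted p = 0.00190; range over all settings 0.00190 to 1.00), and DUSP6, at -0.35 without weights, was at 0.15. The EGR1 difference between full-length MED12 and GFP ran from 0.58 to 0.77 over all settings. With the replicate block the members at an unadjusted p under 0.05 numbered 5 with full-length MED12 (5.28% of rows), 3 with the PQL/Opa-deleted construct (6.35%) and 3 with the shRNA (8.97%) against GFP, 2 with full-length MED12 against the PQL/Opa-deleted construct (3.37%) and 9 with the shRNA against full-length MED12, where the rows at that p were 13.3%, against 7.17% without the block. The intensity trend, quantile normalization and leaving out dim rows also left every member uncalled. Without detection calls, signal over background is unknown, which limits what the 11 dim members can show.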
